A study of Mus musculus with 5 samples.

Results

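Secreted Wnt inhibitors are proteins that cells release to keep Wnt ligands from signaling, and 10 genes that encode them were examined in the prostate tumors of castrated and intact TripleTg mice. The genes were chosen by symbol from the families of Dickkopf proteins (Dkk1, Dkk2, Dkk3 and Dkk4), secreted frizzled-related proteins (Sfrp1, Sfrp2, Sfrp4, Sfrp5 and Frzb) and Wnt inhibitory factor 1 (Wif1). All 10 of 10 had an entry among the 24527 genes of the count table, and 8 of them, against 14612 genes in all, passed the filter on low counts and could be tested. Dkk1 and Dkk4 did not pass it. Bulk RNA-seq had been performed on microscopically examined tumor tissue of 3 castrated and 2 intact mice, to ask which transcripts differ in tumors that grow without testicular androgen. All mice were TripleTg, of the genotype hHGFtg:H11hMET/+:Ctnnb1L(Ex3)/+:PBCre4 on a mixed background of C57BL/6 and C3H SCID. They carry a ubiquitous human HGF transgene, a human MET transgene that Cre switches on, and a Ctnnb1 allele whose exon 3 Cre removes, which stabilizes β-catenin. Cre is driven by the probasin promoter, which is active in prostate epithelial cells and is itself androgen-responsive, so the MET and Ctnnb1 changes are limited to that epithelium while stromal, fat and immune cells keep the normal alleles. Castration took place at 4 months, and all tumors were taken from animals 8 months old. The castrated libraries (replicates 1 to 3) held 28015507, 18951782 and 20492061 counts in total, and the intact libraries (replicates 1 and 2) 21560355 and 22853501. Values per mouse are given in this order. The replicate numbers are those of the labels, and castrated replicate 1 and intact replicate 1 are different mice.

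Wnt ligands signal by bringing together a Frizzled receptor and the co-receptor LRP5 or LRP6, after which β-catenin is spared from degradation and switches on genes together with TCF/LEF factors. WIF1 and the secreted frizzled-related proteins bind the ligands themselves, the latter with a cysteine-rich domain like that of Frizzled, whereas DKK1, DKK2 and DKK4 bind LRP5 and LRP6 and block them together with Kremen proteins. DKK3 is the divergent member of its family, and DKK2 can also activate the pathway in some settings. WIF1, the secreted frizzled-related proteins, DKK1, DKK2 and DKK4 act at the cell surface, upstream of β-catenin. Several of their genes, among them Dkk1 and Dkk4, are known as β-catenin targets in other tissues.

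The promoters of Dkk1, Dkk2 and Wif1 are shown here to set genes that were highest in intact replicate 2 beside one that was not, as RefSeq gives them on GRCm38.p6, the assembly behind mm10. Each window runs 5′ to 3′ from 250 bases before to 50 bases after the start site, and 6 of the 10 members had such a window. The windows of Dkk1 (chr19:30549447-30549746, minus strand) and Dkk2 (chr3:132085042-132085341, plus strand) belong to genes with their highest level in intact replicate 2, and that of Wif1 (chr10:121033754-121034053, plus strand) to the most abundant member, which was highest in castrated replicate 1 and intact replicate 1. Capitals mark the TCF/LEF letters CTTTGAA or CTTTGAT or CTTTGTA or CTTTGTT, searched on both strands.
Dkk1: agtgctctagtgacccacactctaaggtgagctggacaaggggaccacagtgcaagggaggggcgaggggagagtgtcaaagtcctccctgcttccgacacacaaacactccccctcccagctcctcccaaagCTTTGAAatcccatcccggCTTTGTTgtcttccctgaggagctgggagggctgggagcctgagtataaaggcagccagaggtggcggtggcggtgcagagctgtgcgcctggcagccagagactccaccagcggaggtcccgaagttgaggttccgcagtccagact
Dkk2: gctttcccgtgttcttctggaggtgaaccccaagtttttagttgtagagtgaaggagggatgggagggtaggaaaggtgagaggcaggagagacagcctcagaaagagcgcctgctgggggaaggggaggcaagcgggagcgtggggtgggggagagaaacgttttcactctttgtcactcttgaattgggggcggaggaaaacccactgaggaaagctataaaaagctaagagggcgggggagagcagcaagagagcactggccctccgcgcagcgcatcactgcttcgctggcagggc
Wif1: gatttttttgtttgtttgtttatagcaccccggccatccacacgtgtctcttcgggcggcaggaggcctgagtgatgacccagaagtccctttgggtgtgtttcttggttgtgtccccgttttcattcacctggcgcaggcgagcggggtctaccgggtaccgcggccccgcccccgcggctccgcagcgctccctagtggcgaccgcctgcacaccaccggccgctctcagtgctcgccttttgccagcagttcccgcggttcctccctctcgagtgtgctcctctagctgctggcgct

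The Dkk1 window held 2 matches, CTTTGAA at 117 bases and CTTTGTT at 98 bases before the start site, counted from the first base of each match. Of 32851 promoter windows of this length, 16.9% held at least 1 match and 1.94% held 2 or more. The windows of Dkk2, Wif1, Frzb, Sfrp2 and Sfrp5 held 0. The androgen receptor half-site TGTTCT, searched on both strands, had 1 match, at 241 bases before the start site of Dkk2, and was held by 19% of all windows. A match is a description of letters and does not show that a factor binds there.

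The libraries were not alike within groups in the tissue they represented, and this bears on every comparison that follows. Transcripts that mark secretory luminal cells of the prostate were abundant in intact replicate 2 only. Tgm4, a prostate transglutaminase, had 907 TPM there (counts scaled to gene length and library) against 0.201 in intact replicate 1 and 0.357, 0.0461 and 0.0410 in the castrated samples. Intact replicate 1 was thus within the range of the castrated samples for this gene. Whether the dissection or the label of that library differed was not tested, and each comparison rests on it as 1 of only 2 intact mice. Msmb was listed at 0 in every sample. Epithelial markers were present throughout, with a summed level of 5711, 5227 and 6316 TPM in castrated and 8610 and 4535 TPM in intact samples over 10 genes, led by Krt18. Adipocyte markers, of which 11 of 11 had a higher fitted value in castrated samples, summed to 243 TPM in castrated replicate 1 but 2737 and 1984 TPM in castrated replicates 2 and 3, against 142 and 268 TPM in intact samples, with Fabp4 the most abundant. The sum of castrated replicate 1 lay between those of the intact mice, but 6 of the 11 markers (Adipoq, Plin1, Plin4, Cidec, Retn and Cfd) were higher there than in both intact mice by CPM, each with 48 counts or fewer in castrated replicate 1. Lep, which marks fat cells, was at 0 in castrated replicate 1 and in both intact samples.

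Wif1 was the most abundant member per length in every sample, on chromosome 10 from 121034004 to 121100642 (plus strand). Its level was 2670, 783 and 473 TPM in the castrated mice and 1997 and 590 TPM in the intact mice. Castrated replicate 1 and intact replicate 1 were high, the other three were low, and the groups overlapped. By TPM it ranked 29, 175 and 280 among all genes in the castrated samples and 53 and 185 in the intact samples, so that in castrated replicate 1 few genes of any kind had more transcript per length. On the scale of CPM (counts scaled to library size after TMM normalization) castrated samples averaged 1244 ± 1129 (SD, n = 3) and intact samples 1258 ± 774 (SD, n = 2). The log2 fold change, castrated minus intact, was -0.016, with a 95% interval from -2.19 to 2.16 (edgeR quasi-likelihood test, adjusted p = 0.994). The interval is wide, and the estimate ranged from -1.07 without castrated replicate 1 to 0.83 without intact replicate 1.

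**Figure D1:**
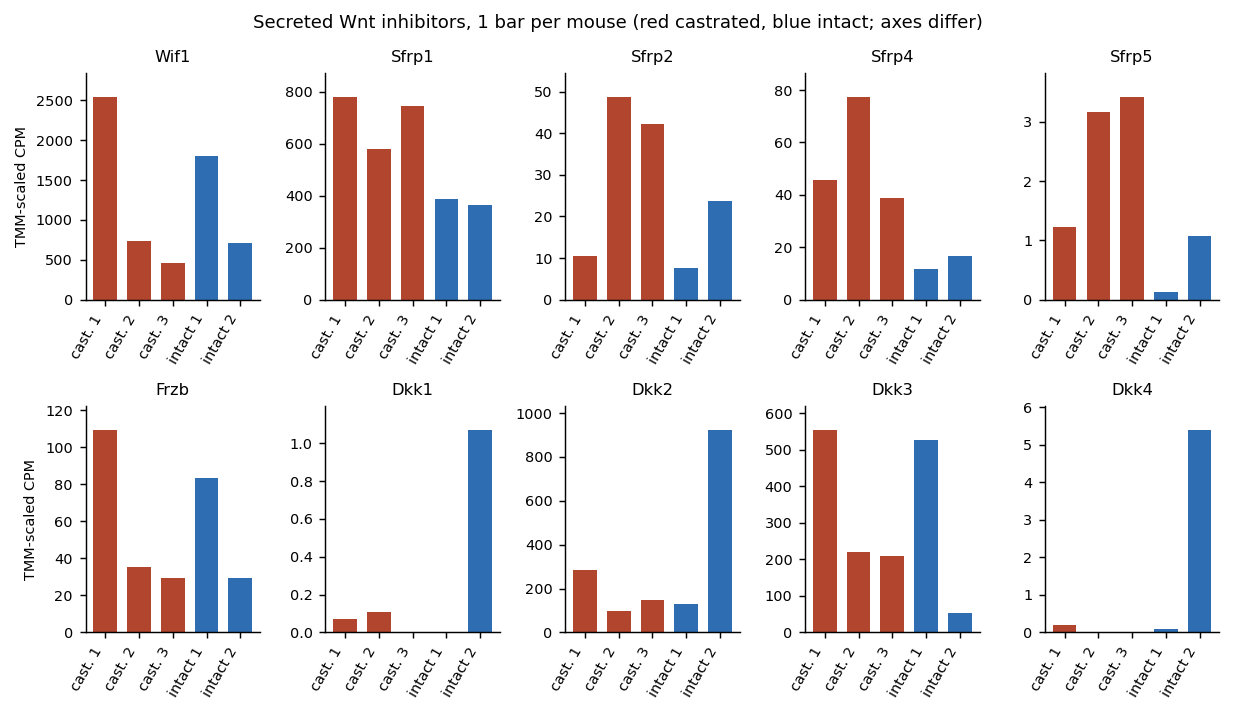
Each panel plots 1 gene, with TMM-scaled CPM on a linear vertical axis from 0 and 1 bar per mouse, red for castrated and blue for intact. Sfrp1, Sfrp4 and Sfrp5 were higher in all 3 castrated mice than in both intact mice, Wif1, Frzb and Dkk3 were highest in castrated replicate 1 and intact replicate 1, and Dkk1, Dkk2 and Dkk4 were highest in intact replicate 2.

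The total of the 10 genes and its make-up differed between mice more than between groups. Summed over the members, the level was 3794, 1499 and 1225 TPM in the castrated samples and 2763 and 1301 TPM in the intact samples. Wif1 made up 70.4%, 52.3% and 38.6% of this sum in castrated and 72.3% and 45.4% in intact samples. Sfrp1 held 11.0%, 21.0% and 32.3% in castrated against 7.95% and 11.8% in intact samples, so its share overlapped between the groups, with castrated replicate 1 below intact replicate 2. Dkk2 held 35.5% in intact replicate 2 and between 3.15% and 7.50% in the other 4 mice. By mean TPM the order was Wif1 (1303), Sfrp1 (300.4), Dkk3 (207), Dkk2 (176), Sfrp4 (50.2), Frzb (46.0), Sfrp2 (30.1), Sfrp5 (2.17), Dkk4 (1.63) and Dkk1 (0.215). The sample ranges of neighbours in this order overlapped, except those of Wif1 and Sfrp1 and those of Sfrp2 and Sfrp5, so most of the order did not hold beyond the spread between mice.

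**Figure D2:**
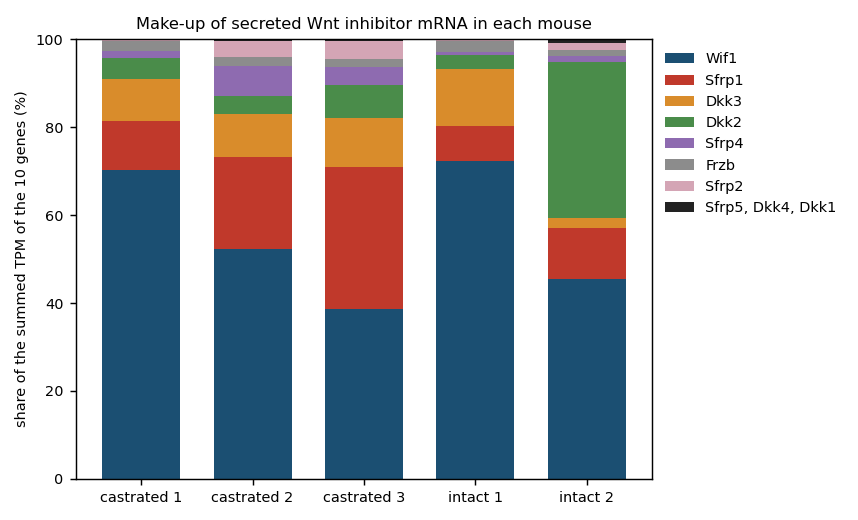
The vertical axis is the share (%) of the summed TPM of the 10 genes that each gene holds, with 1 stacked bar per mouse. Wif1 (dark blue) is the largest part in every mouse, from 38.6% to 72.3%, and Dkk2 (green) reaches 35.5% in intact replicate 2 only.

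Between castrated and intact tumors, none of the members passed the threshold of the study, an adjusted p under 0.05 with an absolute log2 fold change above 1. The study, which names TPM as its input, reported a list of differing genes at that threshold. The fit used here was on counts, and the cause of any difference from that list was not tested. Of the 8 members tested 0 were called, beside 0 of 14612 genes (0%) over the whole table, where 1120 genes (7.66%) were higher and 476 genes (3.26%) lower at an unadjusted p under 0.05 with the same fold change (edgeR's quasi-likelihood test). Under that looser rule 1 member, Sfrp4, was higher and 0 were lower. DESeq2 and edgeR's likelihood ratio test each called Sfrp4 after adjustment, and no other member, where they called 989 genes (6.79%) and 369 genes (2.53%) in all. A fitted value above 0 was found for 6 of 8 members, with a median log2 fold change of 0.54, beside 6992 of 14612 genes and a median of -0.028 over all genes tested. In 3 of 8 members every castrated sample lay above both intact samples, against 17% of all genes tested, and in 0 of 8 every castrated sample lay below, against 16.1%. The 3 members were Sfrp1, Sfrp4 and Sfrp5. The groups hold 3 and 2 mice, and in bulk tissue a larger share of a cell type cannot be told apart from more transcript per cell.

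**Figure D3:**
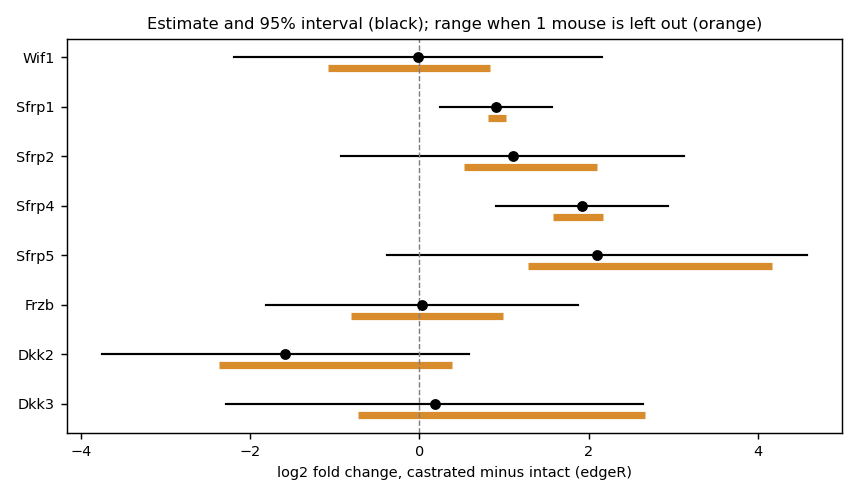
The horizontal axis is the log2 fold change, castrated minus intact, of the 8 members tested, where black points and lines give the edgeR estimate and its 95% interval and orange bars the range of estimates when 1 mouse is left out. The intervals of Sfrp1 and Sfrp4 lie above 0, whereas those of the other members include 0, and the orange bars of Wif1, Frzb, Dkk2 and Dkk3 cross it.

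Sfrp4, on chromosome 13 from 19623175 to 19632823 (plus strand), had the smallest p among the members. Its level was 45.7, 77.2 and 38.8 CPM in the castrated mice against 11.7 and 16.8 CPM in the intact mice, from raw counts of 1310, 1439 and 797 against 260 and 361. The lowest castrated sample was above the higher intact sample, so the groups did not overlap. The means were 53.9 ± 20.4 CPM (SD, n = 3) and 14.2 ± 3.63 CPM (SD, n = 2), and the log2 fold change was 1.92 with a standard error of 0.40 (edgeR quasi-likelihood test, adjusted p = 0.289). Leaving out 1 mouse at a time kept the estimate between 1.58 and 2.17. With castrated replicates 2 and 3 both left out it was 1.68 (edgeR, unadjusted p = 0.0363 and adjusted p = 0.9997), a value that rests on 1 castrated mouse. The part of fat cells was not tested. With intact replicate 1 left out it was 1.70.

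Sfrp1, on chromosome 8 from 23411502 to 23449632 (plus strand), encodes the family member found in many stromal and epithelial tissues. By mean TPM it was the second most abundant inhibitor, although Dkk3 was above it in intact replicate 1 and Dkk2 in intact replicate 2. It had 778, 581 and 746 CPM in castrated and 389 and 362 CPM in intact replicates. The castrated mice again lay wholly above the intact mice, which differed from each other by little. Means were 702 ± 105 CPM (SD, n = 3) and 375 ± 18.7 CPM (SD, n = 2), and the log2 fold change was 0.90 with a standard error of 0.26 (edgeR quasi-likelihood test, adjusted p = 0.294). This difference was under the fold change threshold. In DESeq2 the adjusted p of Sfrp1 was 0.00667, but its log2 fold change, 0.90, was under that threshold too. The edgeR estimate stayed between 0.81 and 1.03 when 1 mouse was left out. It was 0.97 without intact replicate 1 and 1.05 without castrated replicates 2 and 3.

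Sfrp5, known as an adipokine as well as a Wnt inhibitor, lies on chromosome 19 from 42197971 to 42202252 (minus strand) and was expressed near the limit of the filter. It had 35, 59 and 70 counts in castrated and 3 and 23 counts in intact replicates, that is 1.22, 3.16 and 3.41 CPM against 0.134 and 1.07 CPM. The groups did not overlap, but castrated replicate 1 and intact replicate 2 were close to each other. The log2 fold change was 2.10 with a 95% interval from -0.39 to 4.58 (edgeR quasi-likelihood test, adjusted p = 0.380). Intact replicate 1 with its 3 counts decided much of this value, which was 1.29 without it and 4.17 without intact replicate 2. Without castrated replicates 2 and 3 it was 1.03, a value that rests on 1 castrated mouse, and the part of fat cells was not tested.

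Sfrp2, on chromosome 3 from 83766321 to 83774314 (plus strand), is one of the family members found in stroma and followed the same pair of castrated mice. Its level was 10.5, 48.6 and 42.2 CPM in castrated and 7.62 and 23.8 CPM in intact replicates. Castrated replicates 2 and 3 were high, whereas castrated replicate 1 lay between the intact mice, so the groups overlapped. The log2 fold change was 1.10 with a 95% interval from -0.92 to 3.13 (edgeR quasi-likelihood test, adjusted p = 0.551), and it was 0.52 without intact replicate 1 and -0.57 without castrated replicates 2 and 3. In the GENCODE annotation, exons of Sfrp2 share bases with Gm26771 on the other strand, and since the strand setting of the counting is not given in the sources used here, part of these counts may belong to that gene.

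Markers of other cell types were higher in the same mice as Sfrp1, Sfrp4 and Sfrp5. Over all genes tested, every castrated sample lay above both intact samples in 17%. Of 9 smooth muscle markers 9 had a higher fitted value in castrated samples and 8 lay above without overlap, beside that 17%. Their median log2 fold change was 2.58, with summed levels of 460, 769 and 640 TPM against 289 and 142 TPM (most abundant gene Tagln). Fibroblast markers were higher in 9 of 10 cases, with 5 of them not overlapping, beside the same 17%. They summed to 3331, 4934 and 6794 TPM in castrated and 2660 and 1317 TPM in intact samples (most abundant gene Dcn). Macrophage markers were higher without overlap in 8 of 8 cases, again beside 17% of all genes tested. Their sums were 1657, 4225 and 1882 TPM against 852 and 756 TPM, led by C1qa. None of these list totals overlapped between the groups, and neither did those of neuroendocrine markers, at 19.1, 26.9 and 30.4 TPM against 1.75 and 1.69 TPM, led by Chgb. Of 8 endothelial markers 7 had a higher fitted value in castrated samples, with a median log2 fold change of 0.63, and Pecam1, Kdr and Tek were higher in all 3 castrated mice than in both intact mice, although the endothelial sums overlapped. No gene of these lists passed the adjusted threshold. The part of smooth muscle, fibroblasts, macrophages, endothelium and neuroendocrine cells in the values of Sfrp1, Sfrp4 and Sfrp5 was not tested.

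**Figure D4:**
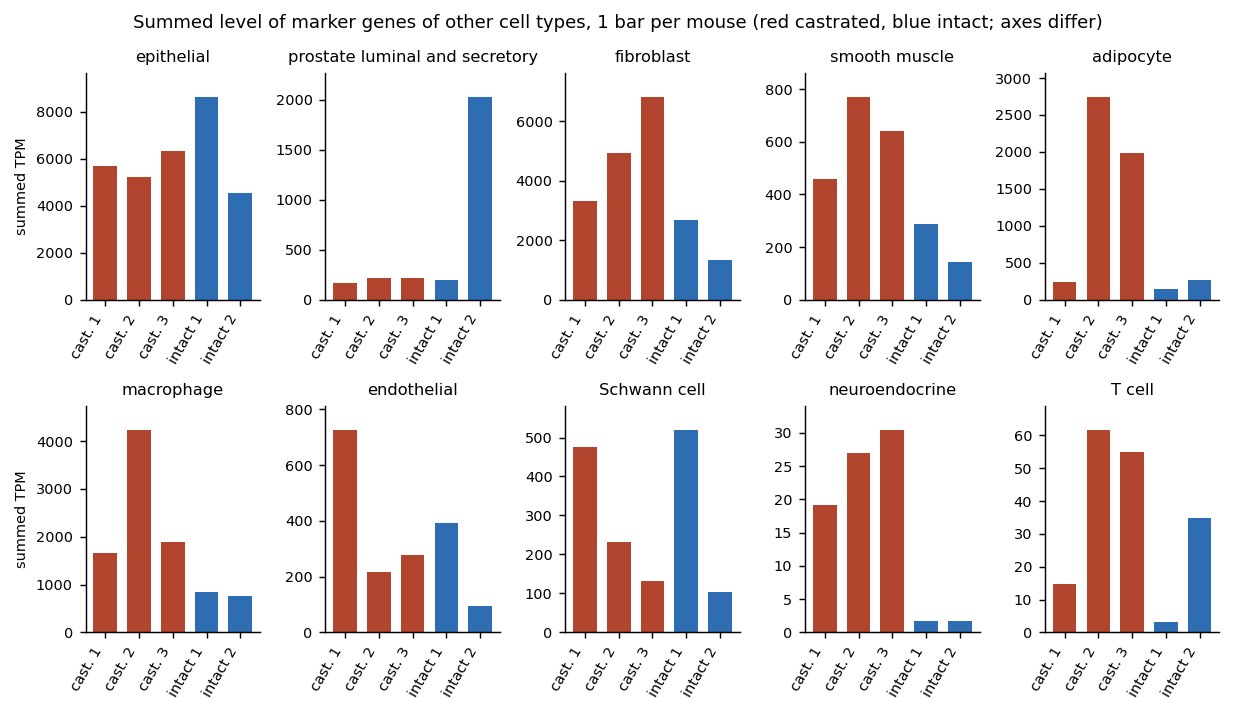
Each panel plots the summed TPM of 1 list of marker genes on a linear vertical axis from 0, with 1 bar per mouse, red for castrated and blue for intact. Smooth muscle, fibroblast, macrophage and neuroendocrine sums are higher in the 3 castrated mice, the adipocyte sum is high in castrated replicates 2 and 3, and the prostate luminal and secretory sum is high in intact replicate 2, at 2024 TPM against 221 TPM or less elsewhere.

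Frzb and Dkk3 shared with Wif1 the pair of highest samples, 1 from each group. Frzb, the secreted frizzled-related protein first known from cartilage, lies on chromosome 2 from 80411970 to 80447396 (minus strand) and had 109, 35.4 and 29.3 CPM in castrated and 83.6 and 29.7 CPM in intact replicates. As for Wif1, castrated replicate 1 and intact replicate 1 were high and the other mice low. Its log2 fold change was 0.034 with a 95% interval from -1.81 to 1.88 (edgeR quasi-likelihood test, adjusted p = 0.986), and its estimates with 1 mouse left out ran from -0.81 to 0.99.

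Dkk3, on chromosome 7 from 112116019 to 112159482 (minus strand), had 553, 219 and 210 CPM in castrated and 526 and 52.2 CPM in intact replicates. The intact mice differed by 10.1-fold, more than any pair of castrated mice, and held the second highest and the lowest of the 5 values. The log2 fold change was 0.18 with a 95% interval from -2.28 to 2.64 (edgeR quasi-likelihood test, adjusted p = 0.947). It was 2.67 without intact replicate 1 and -0.72 without intact replicate 2, so the intact mouse chosen set its direction. In Wif1, Frzb and Dkk3, 3 of 8 members tested, castrated replicate 1 and intact replicate 1 were the highest pair, as they were in 14.3% of all genes tested. The Schwann cell markers had their highest sums in the same mice, at 475 and 519 TPM against 232, 132 and 104 TPM in castrated replicates 2 and 3 and intact replicate 2, mostly through Ngfr, while Sox10, which defines that lineage, was at 2.54 TPM or less in every sample and at 0 in intact replicate 2. The endothelial sum was also highest there, at 725 TPM in castrated replicate 1, of which Cldn5 made 424 TPM, and 391 TPM in intact replicate 1, of which Cdh5 made 141 TPM, against 278 TPM or less in the other mice. The part of these cell types was not tested.

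Dkk2, on chromosome 3 from 132085292 to 132180304 (plus strand), had, of the 8 members tested, the largest fold excess of its highest library over the next. It had 284, 96.0 and 147 CPM in castrated and 130 and 922 CPM in intact replicates, from raw counts of 8134, 1790 and 3012 against 2909 and 19829. Intact replicate 2 stood 3.25-fold above the next sample, castrated replicate 1, whereas intact replicate 1 lay within the castrated range. An excess of intact replicate 2 of 3-fold or more over every other sample was seen in 1.77% of all genes tested, and intact replicate 2 was the highest sample in 31.3% of them and in 1 of 8 members tested. The log2 fold change of Dkk2 was -1.58 with a 95% interval from -3.75 to 0.58 (edgeR quasi-likelihood test, adjusted p = 0.431). It was -2.37 without intact replicate 1 and 0.39 without intact replicate 2, so its direction rested on that 1 mouse.

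The other DKK genes that act on LRP5 and LRP6 were nearly silent outside the same mouse. Dkk4, on chromosome 8 from 22624043 to 22627546 (plus strand), had 116 counts (5.39 CPM) in intact replicate 2, 2 counts in intact replicate 1, and 6, 0 and 0 counts in the castrated mice. A count of 0 allows up to 0.161 CPM in castrated replicate 2 and 0.146 CPM in castrated replicate 3, as 3 counts would give, and this covers counting error only. Dkk1, on chromosome 19 from 30545885 to 30549496 (minus strand), had 23 counts (1.07 CPM) in intact replicate 2, against 2, 2 and 0 in the castrated replicates and 0 in intact replicate 1, where 0 allows up to 0.134 CPM. All 3 DKK genes of the LRP-binding kind had their highest level in intact replicate 2, the mouse with the secretory luminal transcripts, while Dkk3 had its lowest level there. That mouse was the highest sample in 31.3% of all genes tested. Dkk1 and Dkk4 are low in most mice, and a comparison of the groups would rest on 1 library. With no filter, the log2 fold change was -4.94 for Dkk4 (adjusted p = 0.340) and -3.06 for Dkk1 (adjusted p = 0.384), in both cases by the quasi-likelihood test of edgeR and dependent on how low counts are moderated.

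The receptors through which DKK proteins act were described next. Of 5 genes listed, 4 were tested, and Lrp5, Lrp6, Kremen1 and Ckap4 all had a lower fitted value in castrated samples with overlapping groups and a median log2 fold change of -0.24. Lrp6 had 169, 214 and 208 CPM in castrated and 201 and 207 CPM in intact replicates. Lrp5 had a log2 fold change of -0.43 and Kremen1 of -0.43, and Ckap4, the most abundant by TPM, of -0.015. Kremen2 did not pass the filter, and with 11 counts (0.511 CPM) in intact replicate 2, 0 in intact replicate 1, and 1, 0 and 1 in the castrated mice it was highest in the same mouse as Dkk1, Dkk2 and Dkk4. The highest Lrp6 value was 1.27 times the lowest, in the same mice in which Dkk2 spanned 9.60-fold.

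Other secreted Wnt antagonists were also compared. Of 7 genes, 5 were tested, with 1 higher and 4 lower in castrated samples and a median log2 fold change of -1.05. Draxin, an axon guidance protein that binds LRP6, had 0.558, 0.965 and 0.974 CPM in castrated and 3.14 and 3.16 CPM in intact replicates. Its groups did not overlap, with a log2 fold change of -1.92 (edgeR quasi-likelihood test, adjusted p = 0.290), the only gene of the list under an unadjusted p of 0.05. Of all genes tested, 3.26% were lower at that p with a log2 fold change under -1. Every castrated sample lay below both intact samples in 16.1% of them. Notum, the enzyme that removes the lipid of Wnt ligands, had 169, 67.2 and 55.1 CPM against 264 and 138 CPM, with overlapping groups and a log2 fold change of -1.05. Dkkl1, a relative of Dkk3 known from testis, had 14.1 CPM in intact replicate 2 and 1.22 CPM or less elsewhere, so it shared the excess of Dkk1, Dkk2 and Dkk4 in that mouse. Igfbp4, the most abundant gene of the list, had its lowest level, 302 CPM, in intact replicate 2 and between 847 and 1086 CPM elsewhere, and Cer1 was at 0 in every sample.

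Genes that β-catenin switches on in a feedback loop were described beside the inhibitors, because several inhibitor genes are such targets themselves. All 10 listed were tested, 10 had a lower fitted value in castrated samples and 0 passed either threshold, with overlapping groups in each case and a median log2 fold change of -0.69. Axin2, the scaffold of the β-catenin destruction complex, had 342, 144 and 122 CPM in castrated and 333 and 586 CPM in intact replicates (log2 fold change -1.18, adjusted p = 0.366 in edgeR). Castrated replicates 2 and 3 were below the other 3 mice. Tcf7, a TCF factor, had 68.4, 44.9 and 35.6 CPM against 51.0 and 148 CPM. Rnf43, which removes Frizzled from the membrane, had a log2 fold change of -0.73, and Apcdd1, the most abundant, of -0.25. Among the 10 genes, 5 (Nkd1, Lef1, Sp5, Rnf43 and Apcdd1) had castrated replicate 1 and intact replicate 1 as their highest pair, as did Wif1, Frzb and Dkk3 and 14.3% of all genes tested. In 4 (Axin2, Tcf7, Tnfrsf19 and Bambi) the highest sample was intact replicate 2, as for Dkk2 and 31.3% of all genes tested, a share near that of the list. The remaining gene, Znrf3, was highest in castrated replicate 1, at 223 CPM, with 208 CPM in intact replicate 2. Most of these genes were named after their values had been seen, and with 5 mice no correlation was computed.

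**Figure D5:**
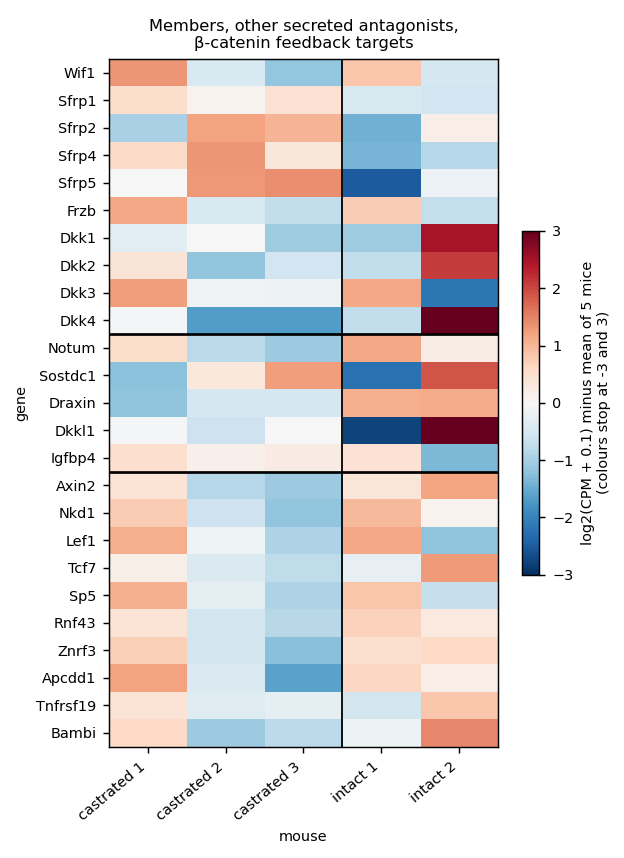
Rows are genes (top, the 10 members, middle, other secreted antagonists that were tested, bottom, β-catenin feedback targets), columns are mice, and colour is log2(CPM + 0.1) minus the mean of the 5 mice, red for high and blue for low. Wif1, Frzb and Dkk3 are red in castrated replicate 1 and intact replicate 1 along with Nkd1, Lef1, Sp5 and Apcdd1, and Dkk1, Dkk2, Dkk4 and Dkkl1 are darkest in intact replicate 2.

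Ligands and receptors that the inhibitors meet at the cell surface gave the following counts. Of 19 Wnt ligand genes 13 were tested, with 8 higher and 5 lower in castrated samples, and their median was 0.64 on the log2 scale. Wnt10a had 54.2, 21.7 and 21.7 CPM in castrated and 11.0 and 13.2 CPM in intact replicates, and Wnt9a had 12.0, 11.3 and 12.1 CPM against 6.32 and 1.81 CPM. These were the 2 ligands under an unadjusted p of 0.05, with log2 fold changes of 1.43 and 1.53 (edgeR quasi-likelihood test, adjusted p = 0.316 and 0.328). At that p with a log2 fold change above 1, 7.66% of all genes tested were higher. Wnt7b lay below without overlap, as did 16.1% of all genes tested. It had 19.9, 46.8 and 31.4 CPM in castrated against 55.5 and 59.96 CPM in intact replicates, with a log2 fold change of -0.82. Wnt10b had a log2 fold change of 2.24 that 27.9 CPM in castrated replicate 1 dominated, and Wnt5a, the most abundant ligand and mostly a non-canonical one, had one of 0.64 with overlapping groups. Of 13 Frizzled and Wnt-binding kinase genes 12 were tested, 8 higher and 4 lower, and their median was 0.25 on the log2 scale. Fzd2 (1.09) and Fzd4 (1.03) were higher at an unadjusted p under 0.05, beside 7.66% of all genes tested at that p with a log2 fold change above 1. Ror1 (1.69), Fzd2 and Fzd4 were higher without overlap, beside 17% of all genes tested. Fzd1, the most abundant gene of this list, had a log2 fold change of 1.08 with overlapping groups.

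R-spondins, which act opposite to the DKK proteins by keeping Frizzled and LRP6 at the membrane, and their LGR receptors had fitted values in both directions. Of 7 genes 5 were tested, 3 higher and 2 lower. Rspo3 had 8.48, 17.5 and 41.0 CPM in castrated and 1.30 and 2.37 CPM in intact replicates, with a log2 fold change of 3.60 (edgeR quasi-likelihood test, adjusted p = 0.289). Rspo1 had 6.87, 6.38 and 7.80 CPM against 2.42 and 3.49 CPM, with a log2 fold change of 1.25. Both ligands were thus higher in every castrated mouse than in both intact mice, as were Sfrp1, Sfrp4, Sfrp5 and 17% of all genes tested. Lgr5, a stem cell receptor and β-catenin target, had 60.5, 38.2 and 30.1 CPM against 73.5 and 163 CPM, with a log2 fold change of -1.46 (edgeR quasi-likelihood test, adjusted p = 0.297). Lgr6, which was named after its values had been seen, had 7.22, 2.04 and 1.90 CPM against 7.93 and 56.1 CPM, so most of its log2 fold change of -3.10 came from intact replicate 2. Lgr5 and Lgr6 were lower in every castrated mouse than in both intact mice, as were 16.1% of all genes tested. For Lgr6, castrated replicate 1 and intact replicate 1 were close to each other. Lgr4, the most abundant of the receptors, had a log2 fold change of 0.93 with overlapping groups.

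Most members varied widely from mouse to mouse. The ratio of the highest to the lowest sample had a median of 6.50 over the 8 members tested and of 2.23 over all genes tested. Sfrp1 was the steadiest of these 8, at 2.15, below the median of all genes, and Sfrp5 the least steady, at 25.4 with few counts. Within groups, intact replicate 1 was 2.54-fold above intact replicate 2 for Wif1 and 2.82-fold for Frzb, and only 0.141 times its level for Dkk2. For Wif1, Frzb, Dkk2, Dkk3, Sfrp2 and Sfrp5, the CPM of mice of the same group differed by more than the group means did. Of the members tested, this was not so for Sfrp1 and Sfrp4.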

How the data were processed

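Bulk RNA-seq libraries of TripleTg prostate tumors, 3 from castrated mice and 2 from intact mice, were grouped by the titles in their labels. The authors depleted ribosomal RNA and deposited raw read counts per gene without normalization, after trimming with Trimmomatic (0.39), alignment to mm10 with STAR (2.7.9) and counting with HTSeq (2.0.2), as named in the submitters' processing notes. A gene length in kilobases, another column deposited with the counts, was used to compute TPM only.

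Counts were analyzed in R (4.3.3). Genes that exceeded 1 CPM in 2 or more samples were given to the quasi-likelihood F-test of edgeR (4.0.16) with TMM scaling and Benjamini-Hochberg adjustment over all 14612 genes tested, and a gene was called when its adjusted p was below 0.05 and its log2 fold change beyond 1 in either direction. The test, filter and threshold are those of the study's methods, with counts in place of TPM. CPM in the text are scaled by the TMM library sizes of the genes tested. A standard error is the size of the log2 estimate over the root of its F value, and intervals of 95% use the degrees of freedom of that test. Alternatives were DESeq2 (1.42.0), the likelihood ratio test, other scalings and filters, the replicate number as a block, and leaving out mice. The fits were tested on simulated counts. No libraries in a group were duplicates, since the lowest chi-square per gene for a pair was 133.

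The members and gene lists were chosen with earlier results of these data known. Named genes were all members, and from each pathway list the 3 with the smallest p and the most abundant, and from each marker list the most abundant and defining markers at 0. Other genes named from these lists (further endothelial, adipocyte and Schwann cell markers, and pathway genes beyond the rule) were chosen after their values were seen. Skeletal muscle, seminal vesicle, urothelial, chondrocyte and T cell markers were also examined. Skeletal muscle (led by Mylpf), seminal vesicle (Svs4) and T cell (Cd3g) sums were at most 9.20, 19.7 and 61.6 TPM in any sample, and urothelial (Upk1b) and chondrocyte (Sox9) sums overlapped between groups. Promoters were read from RefSeq windows on GRCm38.p6, and coordinates of genes are those of the deposited mm10 table, counted from 1. Single-cell and qRT-PCR experiments were not analysed here. 1 marker gene is not reported here.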

Additional observations from a re-analysis of the deposited data

How the results depend on the processing

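With edgeR's quasi-likelihood test, 0 members passed the adjusted threshold under all scalings, filters and sample choices that were run, and Sfrp1, Sfrp4 and Sfrp5 kept a higher fitted value in castrated samples in each of these fits. DESeq2 called 989 genes in all and 1 member, Sfrp4 (adjusted p = 0.00107). It had 2 members, Sfrp4 and Sfrp5, at the unadjusted p with a log2 fold change beyond 1 (14.2% of all genes). Sfrp1 had an adjusted p of 0.00667 in DESeq2 but a log2 fold change of 0.90, under the threshold. The likelihood ratio test called 369 genes and 1 member, again Sfrp4 (adjusted p = 0.0171 from edgeR). Under the other settings the adjusted p of Sfrp4 from edgeR ran from 0.170 to 0.9997. With no filter, 2 members, Sfrp4 and Dkk4, passed the unadjusted p with a log2 fold change beyond 1 (10.9% of all genes). Sfrp1 passed that p (0.0164, edgeR quasi-likelihood test) but not the fold change. The cause of these differences was not tested.

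When 1 mouse at a time was left out, the number of members at the unadjusted p with a log2 fold change beyond 1 ranged from 1 to 3, beside 6.09% to 17.8% of all genes, and the number of genes called in all from 0 to 1 (Coch, without intact replicate 1). The 3 members without intact replicate 1 were Dkk2, Dkk3 and Sfrp4, where 17.8% of all genes passed. Without castrated replicate 2 the pair was Sfrp1 and Sfrp4 (6.22% of all genes), and without intact replicate 2 it was Sfrp4 and Sfrp5 (10.3%). In these fits the log2 fold change ranged from -1.07 to 0.83 for Wif1, from -2.37 to 0.39 for Dkk2, from -0.72 to 2.67 for Dkk3 and from -0.81 to 0.99 for Frzb. Without castrated replicates 2 and 3, where castrated replicate 1 is assumed to vary like the other group, Sfrp2 reversed to -0.57 and Wif1 to 0.999.

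After each gene was centred within its group, castrated and intact replicate 1 correlated at 0.149, and castrated and intact replicate 2 at -0.045. With 2 intact mice the centred values mirror each other, so these correlations are not independent. They cannot decide whether mice with the same number share more than that number. With the replicate block, 0 genes and 0 members were called, Wif1 reversed to 0.27, and Sfrp4 was at 2.09. The older quasi-likelihood fit of edgeR, added after seeing the data, gave 0 calls. Dkk1, Dkk4 and Sfrp5 have under 120 counts in every library, which limits their precision.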
